A study of Homo sapiens with 2 samples.

Results

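Peaks that lay wholly within the body of a 3′ UTR made up 2785 of the 21142 IGF2BP3 LACE-seq peaks of replicate 1 (13.2%, interval 12.7 to 13.6) and 2191 of the 20799 peaks of replicate 2 (10.5%, interval 10.1 to 11.0). Intervals throughout are Wilson 95% confidence intervals, which cover counting error only. A peak was a member when its whole interval fell in 1 exon of the 3′ UTR of the canonical transcript of a protein-coding gene, and when its edge nearest the end of the transcript was more than 300 bp from that end. This leaves out peaks that touch coding sequence at the stop codon and peaks at the 3′ end of the transcript. The members are called body peaks here, which came from 2130 genes (replicate 1) and 1736 genes (replicate 2). The rule did not use any measured height or fold of a peak.

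The study mapped the binding sites of IGF2BP3 in OE-19, an established cell line of esophagogastric junction adenocarcinoma, grown without any further treatment that the labels name. In LACE-seq, UV light crosslinks RNA to the proteins that touch it, the protein is immunoprecipitated, and the cDNA of the bound fragments is amplified linearly before sequencing. There were 2 replicates of 1 group, with no statement that they were separate cultures, and neither an input nor an IgG library was analysed here. With 1 group of 2 libraries no test over samples is possible, so all values are given per replicate as a description. Peak lists hold no expression values, so the cell line was not checked against markers, and the abundance of each RNA was not analysed.

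The 3′ UTR is the part of an mRNA that follows the stop codon, and it carries most of the sites through which RNA-binding proteins and microRNAs set the stability and translation of a message. IGF2BP3 is an oncofetal RNA-binding protein with RRM and KH domains that stabilises many of its target mRNAs, and it has been described as a reader of N6-methyladenosine (m6A). The m6A mark is densest around stop codons and in the adjoining 3′ UTR, where it lies in a sequence context built on GGAC, and CA-rich elements such as CACA have been described in IGF2BP binding sites.

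Sequences from a few recurrent body peaks show the scale of these elements. Each line gives 30 nt of hg38 on the strand of the gene, 5′ to 3′, centred on whichever of GGAC or CACA lay nearest to the middle of the replicate 1 peak, and that motif is in capitals. The first 4 genes had some of the strongest peaks that recurred in both replicates with no exon of another gene beneath them, and CDK6, a cyclin-dependent kinase of the G1 phase, had the most recurrent body peaks. The 30-nt stretch around the GGAC of PPM1A lay at chr14:60292884-60292913 (plus strand). The stretch around the CACA of TMEM50A lay at chr1:25361375-25361404, that of SNX9 at chr6:157943808-157943837 and that of DYRK1A at chr21:37513016-37513045, all on the plus strand. Of the 4 CACA sites found in this way in CDK6, 3 are shown. Their stretches lay at chr7:92613839-92613868, chr7:92606498-92606527 and chr7:92605868-92605897, on the minus strand.
PPM1A: tcatgttgtgtttGGACttggggttggaac
TMEM50A: ttctggtgggatgCACAgtcactccacatc
SNX9: gctgtggccacggCACActgcttggcttgg
DYRK1A: taagtcctctaaaCACActtgggcacggaa
CDK6 site 1: aacctaacagggtCACAtatgttctctaat
CDK6 site 2: tgaccaacatcccCACAcctctacatctct
CDK6 site 3: tcttttctctgtaCACAgattgagagttac
These motifs are short and frequent, and a match is a description of the sequence, not a mapped binding site. In SNX9, DYRK1A and site 2 of CDK6 the CACA is followed by C, so that it also holds the 5-mer CACAC. The motif shown for PPM1A lay 93 nt from the middle of its 313-bp peak.

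Body peaks recurred between the replicates to different degrees. In replicate 1, 1439 body peaks (51.7%, interval 49.8 to 53.5) shared at least 1 bp with a peak of replicate 2, below the 60.1% of all peaks of replicate 1 on annotated chromosomes. In replicate 2, 1558 body peaks (71.1%, interval 69.2 to 73.0) did so with a peak of replicate 1, above the 61.2% of all peaks of replicate 2. Body peaks therefore lay on opposite sides of the background in the 2 lists. Both shares count much the same overlaps, over 2785 body peaks in replicate 1 and 2191 in replicate 2. The lower share of the longer list thus partly restates its number of body peaks. Peaks over a stop codon recurred in 76.6% and 81.7% of cases, and peaks that reached the last 300 bp of a transcript in 61.1% and 77.5%. The overlapping partner of a recurrent body peak was itself a body peak in 87.8% of cases in replicate 1 and 81.5% in replicate 2. Most other partners ran over a stop codon (139 and 211) or reached the transcript end (30 and 72).

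The difference between the lists moved with base composition. In windows that reached 50 nt either way from the peak middle, the median GC content of body peaks was 43.6% in replicate 1 and 48.5% in replicate 2. Below 40% GC there were 1052 body peaks in replicate 1 and 556 in replicate 2, whereas above 50% GC there were 891 and 1016. Between these limits there were 842 and 619, so the surplus of replicate 1 lay in both classes up to 50% GC. Of the body peaks below 40% GC, 32.6% (interval 29.8 to 35.5) recurred in replicate 1 and 78.1% (interval 74.4 to 81.3) in replicate 2. Above 50% GC the order was the opposite, with 73.6% (interval 70.6 to 76.4) in replicate 1 and 63.8% (interval 60.8 to 66.7) in replicate 2. The recurrent peaks themselves numbered 343 and 434 below 40% GC and 656 and 648 above 50% GC. So these shares partly restate the numbers of peaks in each class. Body peaks found in a single list had a median GC content of 39.6% in replicate 1 and 52.5% in replicate 2, and recurrent ones had nearly the same median in both, 48.5% and 47.5%.

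The same order held for peaks outside the body. Their recurrence below 40% GC was 42.3% in replicate 1 and 66.5% in replicate 2, and above 50% GC it was 74.0% and 56.3%. They were richer in GC than body peaks, with medians of 50.5% and 56.4%. The part of GC content in the difference between the libraries was not tested.

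**Figure D1:**
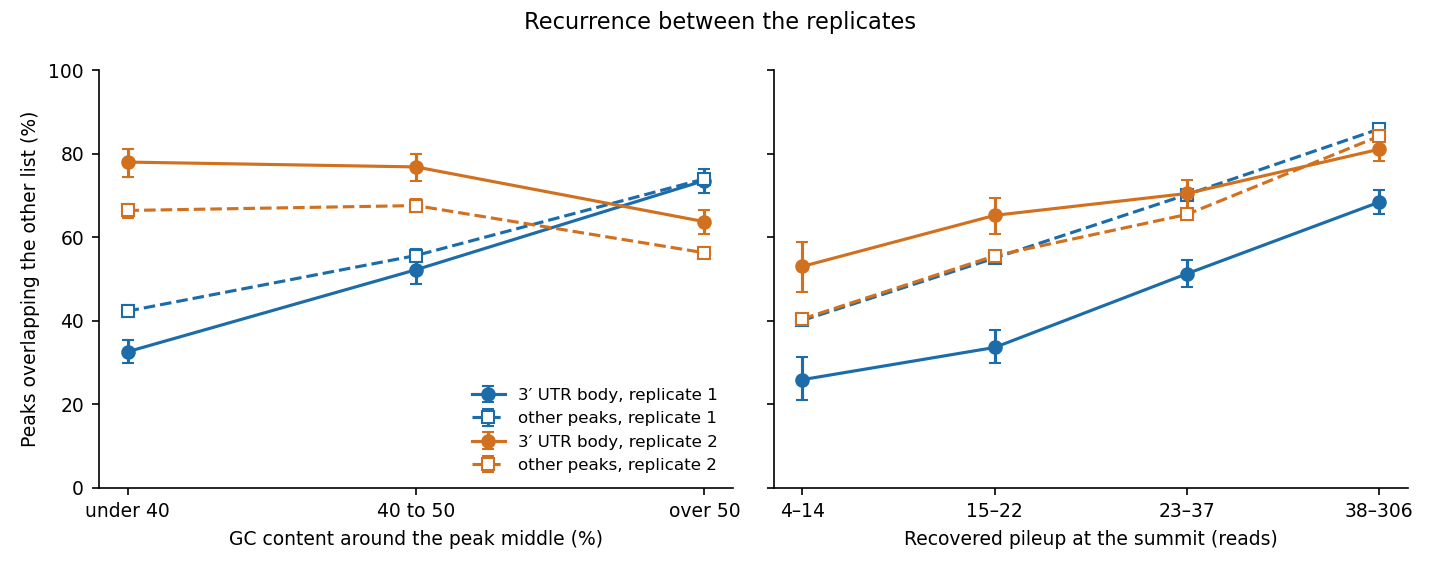
Share of peaks with at least 1 bp in common with a peak of the other replicate (y axis, percent), by GC content within 50 nt of the peak middle (left) and by recovered read pileup at the summit (right). Filled circles and solid lines are body peaks, open squares and dashed lines all other peaks, and bars are Wilson 95% intervals (not drawn for the other peaks on the right). Body peaks of replicate 1 recurred least below 40% GC (32.6%), and those of replicate 2 least above 50% GC (63.8%).

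The fold enrichment given by the peak caller at the summit was lower in body peaks than in the other classes. The median fold was 5.27 in replicate 1 and 5.67 in replicate 2, against 7.09 and 7.30 for all peaks outside the body, 6.98 and 7.04 over stop codons and 6.07 and 5.99 inside coding exons. The pileup at the summit, recovered from the deposited fold and p-value, had a median of 31 and 29 reads in body peaks and 21 in all other peaks of both lists, but 35 and 36 over stop codons and 35 and 33 at transcript 3′ ends. The local background of the caller, recovered in the same way, had a median of 4.81 and 4.20 reads in body peaks against 1.79 and 1.59 in all others, 3.87 and 3.88 over stop codons and 4.76 and 3.91 at transcript 3′ ends. So the order of body peaks and all other peaks depended on the measure, and the −log10 q-value, which uses both, differed less (medians 11.1 and 11.5 against 12.1 and 12.6). The median width of body peaks was 373 and 363 bp, between the 332 and 340 bp of all other peaks and the 537 and 527 bp of stop codon peaks.

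**Figure D2:**
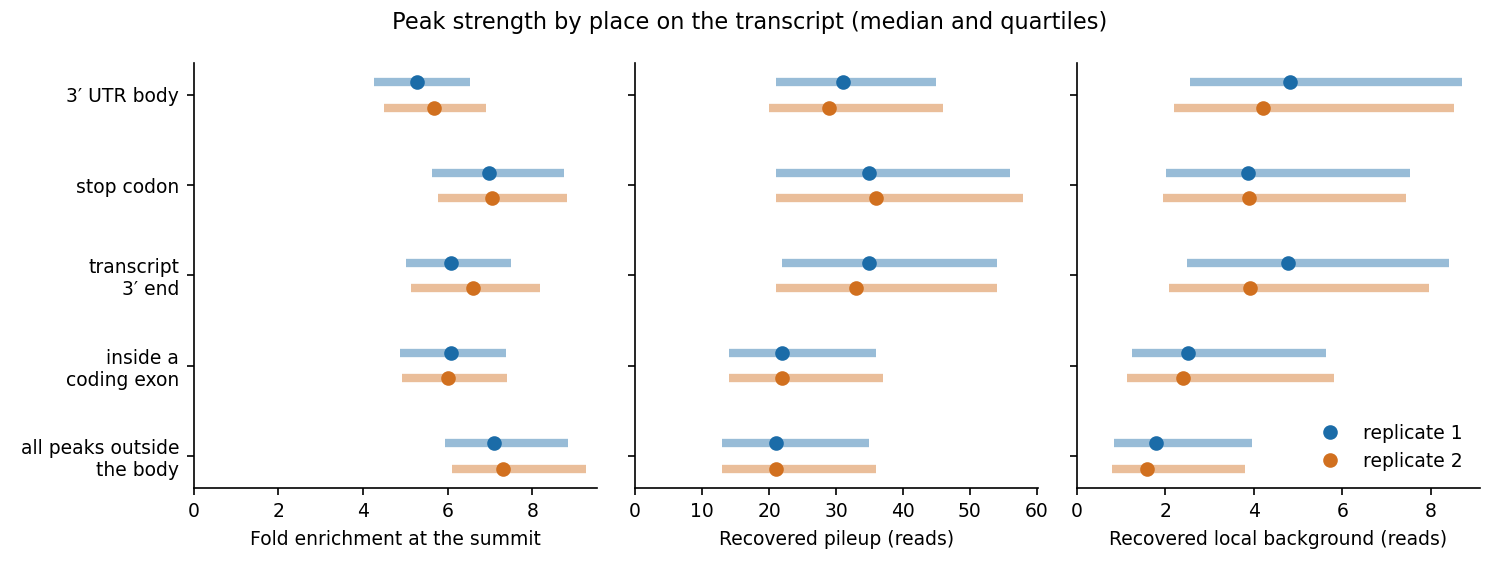
Fold enrichment at the summit (left), recovered pileup in reads (middle) and recovered local background in reads (right) for peaks by place on the canonical transcript. Points are medians and bars run from the lower to the upper quartile of the peaks of each replicate. Body peaks had the lowest median fold of the classes shown (5.27 and 5.67), whereas their median local background (4.81 and 4.20 reads) was above that of all peaks outside the body (1.79 and 1.59).

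Recurrence rose with the pileup in both lists. Body peaks with 4 to 14 reads at the summit recurred in 25.9% (replicate 1) and 53.1% (replicate 2) of cases, and those with 38 to 306 reads in 68.5% and 81.1%. At the same pileup the body peaks of replicate 1 recurred less often than its other peaks in each of the 4 ranges (40.1% of the other peaks in the lowest and 86.0% in the highest). In replicate 2 they recurred more often in the 3 lower ranges and less often in the highest (84.3% of the other peaks). Peaks lay on both sides of the distance limit of the rule, with lower median folds and pileups inside it. In replicate 1, 172 body peaks lay in the first 100 bp inside the limit, with a median fold of 5.61, and 233 peaks in the last 100 bp outside it had a median of 5.66. In replicate 2 these were 160 peaks with 5.91 and 173 peaks with 6.36. The median pileup was 28 reads inside the limit against 35 outside in replicate 1, and 26.5 against 34 in replicate 2.

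Where a body peak of one list overlapped a body peak of the other, their strengths were compared by rank. There were 1322 such pairs in 1049 genes. Spearman's rho across the pairs was 0.666 for fold, 0.684 for pileup and 0.349 for −log10 q, given as a description because pairs of 1 gene share their RNA and both libraries share the peak caller. The folds of 1119 pairs (84.6%) lay within 1.5-fold of each other, and 787 pairs (59.5%) had the higher fold in replicate 2. Only 18 pairs had a fold above 10 in both replicates.

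**Figure D3:**
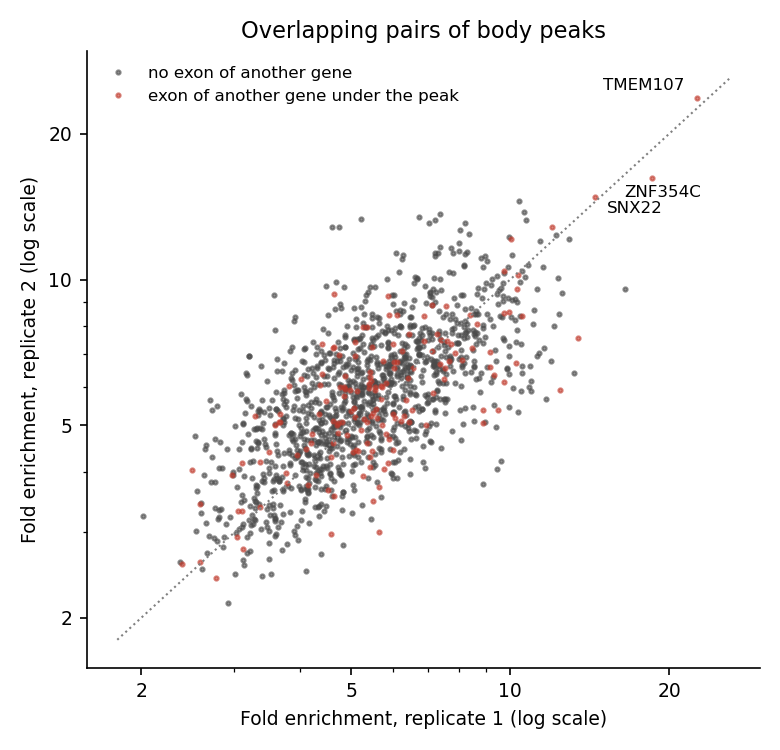
Fold enrichment at the summit in replicate 1 (x axis) and replicate 2 (y axis) for the 1322 overlapping pairs of body peaks, both axes on a log scale, with the line of equal values dotted. Pairs whose replicate 1 peak had an exon of another gene beneath it are red. The pairs follow the line with a Spearman's rho of 0.666, and the 3 named pairs at the upper end, TMEM107, ZNF354C and SNX22, all had such an exon.

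The strongest recurrent body peak was in TMEM107, which encodes a membrane protein of the ciliary transition zone. Its fold was 22.5 in replicate 1 and 23.7 in replicate 2, with pileups of 118 and 116 reads. This peak lies over SNORD118, the U8 small nucleolar RNA that works in pre-rRNA processing and is encoded on the same strand, so reads of the mRNA and of the snoRNA cannot be told apart. Other strong peaks shared their place with genes on the opposite strand, and the deposited peaks carry no strand. ZNF354C, a zinc finger gene, had folds of 18.6 and 16.2 over a processed pseudogene. SNX22, a sorting nexin, had folds of 14.5 and 14.8 where PPIB, the prolyl isomerase cyclophilin B, runs the other way. ANO1, a calcium-activated chloride channel, had folds of 12.0 and 12.8 over its antisense RNA ANO1-AS1. CIITA, the transactivator of MHC class II genes, had folds of 10.0 and 12.1 over DEXI. For these 4 the gene behind the signal is uncertain.

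Among the strongest body peaks with no exon of another gene beneath them were those of RRP1B, LRPPRC and PPM1A. RRP1B, a nucleolar factor of ribosome biogenesis, had folds of 12.9 and 12.1 with pileups of 70 and 64 reads. LRPPRC, which stabilises mitochondrial mRNAs, had 11.4 and 12.0 with 67 and 41 reads. The folds of both genes were nearly equal in the 2 lists, and the pileup of LRPPRC differed more. PPM1A, a serine/threonine phosphatase, had 10.7 and 13.3 on only 21 and 22 reads, so that its fold rests on a low background. SNX9, a sorting nexin of endocytosis, had 10.4 and 14.5, and DYRK1A, a dual-specificity kinase, had 10.8 and 10.7 only 515 and 572 nt after the stop codon of a 13827-nt 3′ UTR. TMEM50A (10.6 and 13.8), INIP of a single-stranded DNA-binding complex (10.1 and 11.3) and the protein kinase A anchor AKAP10 (9.93 and 12.3) were also in this group. UGDH, the UDP-glucose dehydrogenase, had 9.92 and 10.6, but the 31-mer at the middle of its replicate 1 peak occurs 4274 times in the genome, so its reads cannot be placed with certainty.

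Across all body peaks these overlaps were the minority. No exon of another gene lay beneath 89.9% of the body peaks of replicate 1 and 88.0% of replicate 2. An exon on the opposite strand lay beneath 226 and 212 peaks (8.11% and 9.68%) and one on the same strand beneath 68 and 59 (2.44% and 2.69%). A small RNA gene lay beneath only 8 and 5 body peaks. The middle 31-mer occurred more than once in the genome in 5.10% and 5.29% of body peaks, against 9.44% and 7.99% of the other peaks.

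Most genes had 1 body peak, as 75.5% of the genes with a member in replicate 1 and 79.1% in replicate 2 did, and no gene had more than 5. Neighbouring body peaks of a gene lay a median of 905 nt apart in replicate 1 and 933 nt in replicate 2, between their middles. CDK6 was the gene with the most in both lists together, 5 in each replicate, and each of the 5 overlapped 1 of the other list. They lay between 836 and 9462 nt after the stop codon of a 10219-nt 3′ UTR. From the stop codon on, the 5 peaks of replicate 1 had folds of 3.60, 2.02, 2.76, 4.13 and 3.15 and pileups between 97 and 141 reads. In replicate 2 the folds were 2.97, 3.24, 3.37, 3.64 and 5.65 and the pileups between 51 and 100 reads. All 10 folds lay below the median of body peaks in their list, whereas all 10 pileups lay above it.

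**Figure D4:**
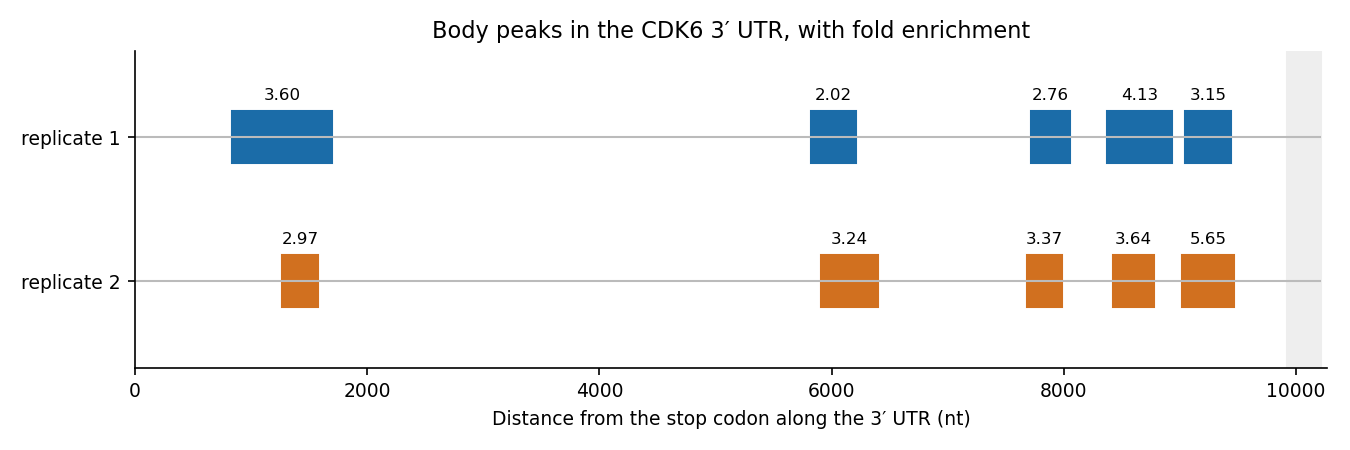
Body peaks along the 3′ UTR of CDK6 in replicate 1 (blue) and replicate 2 (orange), drawn to scale by distance from the stop codon in nt, with the fold enrichment at the summit above each. The grey band is the last 300 nt, which the rule leaves out. Each of the 5 peaks of replicate 1 overlaps 1 of replicate 2, and 4 of the 5 in each list lie beyond 5000 nt.

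The other genes with many overlapping pairs of body peaks were alike in this, as every fold in these pairs lay below the median of body peaks and every pileup above it. TGOLN2, a protein that cycles through the trans-Golgi network, had 3 body peaks in replicate 1 and 5 in replicate 2, with folds in overlapping pairs from 2.52 to 3.67 and pileups from 97 to 162 reads. ABLIM1, an actin-binding LIM protein, had 3 and 5, with folds from 2.65 to 4.01. TBC1D20, a GTPase-activating protein for RAB1, had 4 in each list, and all 4 overlapped, with folds from 3.08 to 4.73. SLC23A2, a vitamin C transporter, had 5 and 3, and SLC22A23, a member of the organic ion transporter family, had 5 and 2. The replicate 2 peak of 1514 bp in SLC22A23 spanned 3 peaks of replicate 1, and PSMG4 has an exon on the opposite strand there.

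Body peaks lay closer to the stop codon than an even spread would place them. For each peak, its place was measured as a share of the room that the rule leaves it in its own exon, from 0 at the stop codon side to 1 at the 3′ end side, so that even placement has a mean of 0.5. The mean was 0.458 in replicate 1 (SD over peaks 0.298) and 0.452 in replicate 2 (SD 0.298). With the room cut into 5 equal parts, the part nearest the stop codon held 26.2% and 27.6% of the peaks, where even placement gives 20%. The other 4 parts held 17.7% to 20.2% in replicate 1 and 16.5% to 19.6% in replicate 2, and the part at the 3′ end side held 17.7% and 17.6%. The median distance of the peak middle from the stop codon was 1055 and 998 nt in 3′ UTRs with a median length of 3178 and 3106 nt. The rule removes peaks that touch the stop codon, so the rise there is that of peaks which begin beyond it.

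**Figure D5:**
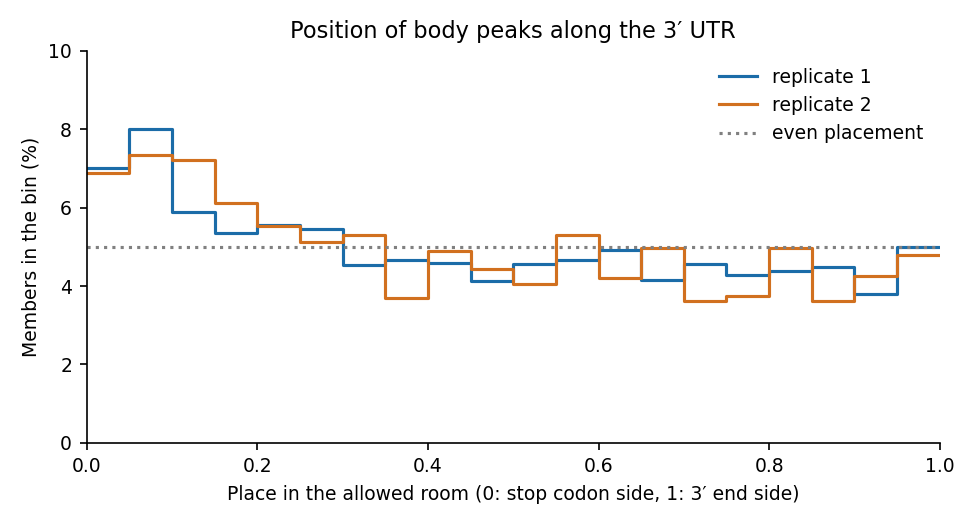
Share of body peaks (y axis, percent) in 20 equal bins of the room that the rule leaves each peak (x axis, from 0 at the stop codon side to 1 at the 3′ end side), for replicate 1 and replicate 2. The dotted line is even placement at 5% a bin. The first 4 bins together held 26.2% and 27.6% of the peaks.

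Some sites lay far from the coding sequence. In replicate 1, 89 body peaks (3.20%) and in replicate 2, 74 (3.38%) had their middle over 5000 nt after the stop codon. The farthest that recurred were in LPP, a LIM protein of focal adhesions, at 15525 and 15540 nt with folds of 5.89 and 6.13, in CNNM2, a membrane protein of magnesium handling, at 11716 and 11718 nt with 5.68 and 6.02, and in AAK1, a kinase of the clathrin adaptor, at 10847 and 10935 nt with 4.10 and 4.86. NT5C2 has an exon on the opposite strand at the CNNM2 site. That peak met the rule for 2 genes and was given to the one with the longer 3′ UTR. Its gene, and with it the distance, is therefore uncertain. Within a peak the summit had a median place of 0.495 and 0.5 of the peak width, counted from the stop codon side. Single summits were often away from the middle, with quartiles of 0.350 and 0.644 in replicate 1 and 0.356 and 0.638 in replicate 2.

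Of the genes whose 3′ UTR left room for a body peak, 17.0% had one in replicate 1 and 13.9% in replicate 2. Among those with a peak anywhere in the gene in that list the shares were 37.1% and 29.8%, and they followed the length of the 3′ UTR. For 3′ UTRs up to 1000 nt the shares were 5.24% and 4.90%, from 1000 to 2000 nt 27.7% and 23.5%, from 2000 to 4000 nt 52.2% and 41.7%, and above 4000 nt 55.8% and 44.01%. An overlapping pair of body peaks was present in 1049 genes, or 8.38% of all genes with room and 15.8% of those that also had a peak anywhere in either list.

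The study followed 8 genes of the G1-S transition that it had picked from its own knockdown data, and none of them had a body peak in either list. Over all genes with room, only 17.0% (replicate 1) and 13.9% (replicate 2) had a body peak, so absence from so short a list was not read as set apart. CHEK2, a checkpoint kinase, has a 154-nt 3′ UTR with no room for one. Of the other 7, peaks over the stop codon were present in replicate 1 for CCNE2, CDK4, CDC25A, E2F1 and WEE1, and in replicate 2 for E2F1 only. CDC6 and E2F3 had no peak in either list. Among all genes with room and a peak but no body peak, 43.9% (replicate 1) and 35.5% (replicate 2) had a stop codon peak. With so few genes, these stop codon peaks were not read as set apart either. CDC25A, the phosphatase that activates cyclin-dependent kinases, had 1 peak of 472 bp in replicate 1 with a fold of 5.89 and a pileup of 13 reads, which reached 152 nt past its stop codon. In replicate 2 the only peak of the gene, with a fold of 5.33 and a pileup of 7 reads, lay far upstream in the gene and did not overlap it. The paper places IGF2BP3 binding in the CDC25A 3′ UTR from RIP-seq and LACE-seq, and also from RIP-qPCR and RNA pulldown. The values here concern the deposited LACE-seq peak calls only.

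Other genes of the G1-S transition did carry body peaks. Of 15 with room, 12 had a peak in either list and 3 had an overlapping pair, which were CDK6, CCND1 and RBL2. CCND1, the D-type cyclin that partners CDK6, had folds of 4.45 and 5.07 on pileups of 99 and 97 reads. RBL2, a pocket protein of the RB family, had 8.95 and 7.61 on 25 and 14 reads. So the higher fold of RBL2 rested on fewer reads. Body peaks of RBL1 were present in replicate 1 only and those of CDKN1A, the inhibitor p21, in replicate 2 only.

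Among mRNAs described as IGF2BP targets, 3 of 12 with room and a peak had an overlapping pair. IGF2, the growth factor that gave the protein family its name, had folds of 9.73 and 10.4 on 21 and 43 reads. The protein-coding gene ENSG00000284779 has an exon on the same strand at the IGF2 peak, so the gene behind that signal is uncertain. MKI67, a coat protein of mitotic chromosomes, had 1 peak of 1377 bp in replicate 1 that covered 2 of replicate 2. MYC and CD44 are on this list and had no pair. Of the targets of the let-7 microRNA, 4 of 13 had a pair, among them IGF1R, IGF2BP2 and NR6A1. IGF2BP2, a paralog of IGF2BP3, had folds of 5.47 and 5.05. IGF2BP3 itself had a body peak in replicate 1 only.

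Receptor tyrosine kinases, which pass growth factor signals into the cell, had pairs in 5 of 12 genes with room and a peak. EGFR had folds of 3.62 and 3.88, FGFR2 9.50 and 8.91, IGF1R 3.71 and 5.17, INSR 2.78 and 5.47, and MET 3.95 and 5.91. FGFR2 was the strongest of these in both replicates, and INSR differed most between them. Factors that bind 3′ UTRs or drive decay had pairs in 6 of 37, the CUG-binding protein CELF1, the Musashi protein MSI2, the Pumilio protein PUM2, the Roquin protein RC3H2, the m6A reader YTHDF3 and IGF2BP2. MSI2 was even between lists at 7.53 and 7.75, and YTHDF3 had 6.20 and 7.97 on 21 and 14 reads. Cleavage and polyadenylation factors had pairs in 2 of 10, CPSF7 (8.60 and 8.61) and NUDT21 (6.87 and 8.42), both subunits of cleavage factor I that bind upstream of poly(A) sites. A protein-coding gene known only by its identifier, ENSG00000288725, shares an exon on the same strand with the NUDT21 peak, so the gene behind that signal is uncertain. The background for each of these counts is 15.8% of all genes with room and a peak, and since the share follows 3′ UTR length and lists of 10 to 37 genes are short, none was read as set apart.

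The GGAC core of the m6A context was at or slightly above its level in the rest of the same 3′ UTRs. It was present in 22.7% of the windows at the peak middle in replicate 1 (interval 21.2 to 24.3) and in 27.7% in replicate 2 (interval 25.9 to 29.7). Over all places that the same peaks could take in their own exons the shares were 21.9% and 24.6%, giving ratios of 1.04 and 1.13. Against only those places whose GC content was within 5 percentage points of the peak's own window, the ratios were 1.00 and 1.04. Both sets of places include the peak's own window and those that overlap it. These weigh more in the smaller set of like GC content and can draw its ratios towards 1. In windows centred on the summit GGAC was present in 25.3% (interval 23.7 to 26.9) against 21.9% in replicate 1 and in 28.0% (interval 26.1 to 29.9) against 24.7% in replicate 2, with ratios of 1.15 and 1.13. TGGAC gave ratios of 1.02 and 1.20 at the middle and 1.18 and 1.08 at the summit. GGACT gave 0.914 and 1.10 at the middle, on opposite sides of 1, and 1.01 and 1.03 at the summit.

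CACA was above its level elsewhere in both lists. It was present in 39.3% of windows (interval 37.5 to 41.1) against 34.6% of allowed places in replicate 1, and in 39.4% (interval 37.4 to 41.5) against 35.8% in replicate 2, with ratios of 1.13 and 1.10. In windows centred on the summit the ratios were 1.31 and 1.21, and at like GC content they were 1.10 and 1.05. The longer ACACA, which holds CACA, had ratios of 1.28 and 1.09. Among the 876 5-mers with at least 50 windows expected in each list, those with the highest lower-of-2 ratio were ACACG (1.64 and 1.36), CTCGT (1.33 and 1.57), GCACG (1.32 and 1.35), CACGG (1.25 and 1.41) and CACAC (1.28 and 1.22). Of these, 3 hold CACG and 2 hold CACA or ACAC. Among the 10 5-mers built from the same bases as CACAC, in other orders, CACAC had the highest ratio in both replicates and AACCC the lowest (0.871 and 0.942), a rank that partly follows from its choice as a leading 5-mer. Among the 10 with the bases of ACACA, that 5-mer ranked 1 in replicate 1 and 3 in replicate 2, where CAAAC led.

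Most AT-rich elements were below their level elsewhere. At like GC content their ratios were nearer 1. The peak's own window is among the places of like GC content, so the part of GC content in this was not tested. AATAAA, the signal for cleavage and polyadenylation, was present in 3.99% of windows against 6.04% of allowed places in replicate 1 and in 2.92% against 5.08% in replicate 2 (ratios 0.660 and 0.575), and at like GC content the ratios were 0.760 and 0.775. AAAAA had ratios of 0.849 and 0.786 and TTTTT 0.873 and 0.818. ATTTA, the core of AU-rich decay elements, was at 0.942 and 0.746, and the Pumilio motif TGTANATA was at 0.960 and 0.678 on 47 and 22 windows. At like GC content the ratios were 0.922 and 0.959 for AAAAA, 0.945 and 0.978 for TTTTT, 1.04 and 0.936 for ATTTA and 1.04 and 0.938 for TGTANATA, so ATTTA and TGTANATA moved above 1 in replicate 1. CTACCTC, the match to the let-7 seed, lay above its level elsewhere, with ratios of 1.63 and 1.25, and 1.47 and 1.09 at like GC content. It was present in 1.11% of windows (interval 0.785 to 1.58) against 0.684% of allowed places in replicate 1. In replicate 2 it was present in 0.822% (interval 0.520 to 1.29) against 0.659%. These ratios rest on only 31 and 18 windows. These values move with the GC content of body peaks, which exceeded that of their allowed places by a mean of 1.02 percentage points in replicate 1 and 2.47 in replicate 2. The median ratio over 5-mers rose from 0.876 and 0.766 for those without G or C to 1.03 and 1.14 for those made of G and C alone.

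Because the canonical 3′ UTR can hold the ends of shorter transcripts, body peaks were also placed against other annotated transcript ends of the same gene. Such an end lay within the peak or up to 300 bp downstream for 26.4% of body peaks in replicate 1 and 26.6% in replicate 2, against 24.9% and 25.1% of allowed places (ratio 1.06 in both). Up to 100 bp downstream the ratios were 0.992 and 0.973, on the other side of 1. Body peaks were thus about as often near annotated internal ends as other places in the same 3′ UTRs.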

How the data were processed

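Both LACE-seq samples, the 2 replicates of the single group in the labels, were used. Peaks were called per replicate. The labels' processing notes name fastp, HISAT2, MACS2 and hg38, whereas the study's methods name Bowtie after removal of pre-rRNA reads and Piranha as the caller. The versions are not given in the sources used here, and the deposited files have the layout of MACS2 narrowPeak with the strand undefined. The authors deposited, for each peak, its positions, a fold enrichment (a ratio over local background at the summit), a p-value and a q-value on the −log10 scale, and a score that repeats the q-value and was not used. The lowest deposited −log10 q was 2.18 and 2.15.

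Library sizes are unknown. The pileup at each summit was recovered as the whole number that gives both deposited values under a Poisson distribution (with 1 added to pileup and background before their ratio). A match within 0.001 was found for 41941 peaks, with more than 1 solution for 9. The smallest pileup was 4 reads. PCR copies among these reads cannot be seen.

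Peaks were placed on the GENCODE 44 canonical transcripts of hg38 by whole interval, in 1-based coordinates, and took the strand of the gene. Where a peak fitted several genes (26 and 24 peaks), the gene with the longest 3′ UTR was taken. The 46 and 36 peaks on scaffolds were left out of shares of all peaks, except of their totals. A stop codon peak covers a canonical stop codon, a 3′ end peak reaches the last 300 bp without a stop codon, and a coding exon peak lies wholly in 1 coding exon. Overlap was counted from 1 bp. Allowed places are all positions that a peak of the same width could take in its own 3′ UTR exon under the rule. A window counted as holding a motif when at least 1 copy lay in it on the gene strand, and motifs that contain each other were counted separately. No test was run. The measures were tested on simulated data with evenly placed peaks, a planted motif and direct counting of overlaps. Python 3.11.15, numpy 2.4.6, pandas 2.3.3, scipy 1.17.1 and numba 0.67.0 were used.

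The members and gene lists were chosen with earlier results of these data known. Genes were named as the 15 with the strongest recurrent body peak (by the lower of its fold percentiles in the 2 lists), the 6 with the most overlapping pairs of body peaks, the 3 with recurrent body peaks farthest from the stop codon, each list gene with an overlapping pair and the 8 G1-S genes of the study. A wide peak that overlaps several peaks of the other list counts in several pairs. Genes that overlap a named peak are given with it, and list genes without a pair (RBL1, CDKN1A, MYC, CD44, IGF2BP3) were chosen after their values were seen. Some genes that this rule names are not reported here. The comparison of 5-mers of like bases, the split by GC content, allowed places of like GC content and, for strength, rank and motifs, the set without overlapping genes were chosen after seeing the data.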

Additional observations from a re-analysis of the deposited data

How the results depend on the processing

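The main values here are means of the 2 replicates. Counting a peak as a member when only its summit lay in the body raised the mean number from 2488 to 4010. Recurrence fell from a mean of 61.4% to 35.2% when summits had to lie within 100 bp. The ratio of median strength in body peaks to other peaks was 0.759 for fold, 0.916 for −log10 q and 1.43 for pileup, which turned the direction. Spearman's rho of 0.666 for fold was 0.349 for −log10 q, 0.668 with an overlap of at least 0.5 of the shorter peak, 0.671 for pairs with at least 15 reads in both and 0.669 without overlapping genes. The mean place of 0.455 was 0.442 in exon parts of at least 2000 bp, and 0.450 both with each gene counted once and where the canonical 3′ UTR was the longest. The CACA ratio of 1.12 was 1.26 at the summit, 1.14 for recurrent peaks, 1.17 for the top 25% of folds and 1.07 at like GC content. The AATAAA ratio of 0.618 was 0.689 in windows of 100 nt to each side and 0.768 at like GC content. The GC difference of 1.75 points was 3.16 at the summit. The ratio for annotated ends of 1.06 was 0.983 up to 100 bp downstream, 1.03 for protein-coding transcripts and 1.04 for recurrent peaks. Counted only among genes with a peak, genes with a body peak were 33.4% in place of 15.4%. The other 67 alternative values of these comparisons stayed within the SD of the replicates (counts within 1.5 times). They include the values of each replicate alone, which except for the number of body peaks always pass, because each lies nearer the mean than the SD. Where the replicates differed widely, as in recurrence (SD 13.7 percentage points), large changes pass too. The count of 67 is therefore no measure of robustness. GGAC and CACA stayed at 1.00 or above in both replicates in all 7 alternatives that kept both lists, whereas TGGAC in replicate 1 did so in 4 of 7. A restriction to windows without repeats was not run, because the genome used here does not mark them. No paired analysis was possible because there is 1 group.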
